A study of Xenopus laevis with 6 samples.

Results

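Ribosome biogenesis genes were followed in EU-captured RNA of Xenopus laevis embryos around the onset of zygotic transcription, with and without protein synthesis. They were taken by name from the 50489 genes of the deposited table: symbols that read ncl, npm1, fbl, rrn3, nolc1, dkc1, gar1, nhp2, bop1, pes1, imp3, imp4 or ubtf, that begin with polr1, or that begin with nop, utp, rrp or nol and a digit. Of 80 such rows, 75 had a mean normalized value of at least 12 over the 6 libraries and make up the set. The 5 rows left out were nop56.S, utp23.S, nol4.L, nol4.S and polr1h.S, the last of them listed at 0 in every library. The lowest row inside the limit was utp15.S (mean 12.3) and the highest outside was nop56.S (3.5). The 75 rows stand for 52 genes, 23 of them with both the L and the S copy that this allotetraploid frog inherited from its 2 ancestral genomes, and 29 with a single copy in the set.

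The treated embryos were wild type and treated from 5 to 7.5 hours post fertilization (hpf) with cycloheximide (CHX), which blocks protein synthesis, at 0.2 mg/ml. They were compared with untreated wild-type embryos at 7.5 hpf, and both with untreated wild-type embryos at 5 hpf, with 2 libraries in each group. All embryos had received 5-ethynyl uridine (EU) by injection of 10 nl at 50 mM into the 1-cell stage, about 0.5 mM in the embryo, a label that enters new RNA and allows its capture. RNA made at any time since the injection could be captured, ribosomal RNA was depleted before sequencing, and all replicates derive from 1 clutch, so p-values measure the spread between these libraries and not between clutches. Whether unlabelled maternal RNA was carried through the capture was not tested. Of 26 rows in a list of maternal transcripts, 23 had a mean of at least 12, with summed values of 14978 and 14612 at 5 hpf. The values below may therefore hold RNA other than new RNA. Because whole embryos were used, fewer cells of a type and less RNA per cell cannot be told apart.

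Ribosomes are built in the nucleolus, where RNA polymerase I copies the ribosomal DNA into a long precursor that small nucleolar ribonucleoproteins (snoRNPs) modify and assembly factors cut and fold into the small and large subunits. The frog egg carries a large store of ribosomes, and the embryo begins to make its own ribosomal RNA in the blastula. The genes below encode that machinery, not the ribosomal RNA or the ribosomal proteins themselves.

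The values are gene-level abundances that the authors scaled by library and rounded. They are not divided by gene length, so each gene is compared with itself across libraries and levels of different genes are not ranked. Summed values per library lay between 6680033 and 7742693. The spacing of low values put 1 read at about 1.85 and 2.31 units in the 5 hpf libraries and at a smaller value in the later ones. Low genes were therefore measured less well at 5 hpf. The spacing was less certain in the later libraries (correlation of the fit 0.357 to 0.788, against 0.942 and 0.969 at 5 hpf). In CHX replicate 2, spacings of 0.446 and 1.322 units fitted almost equally well. In a list of early zygotic genes, all 30 measured rows had positive log2 fold changes over 5 hpf, in controls and under CHX. In the fit described below, 24 were called higher in controls (5.9% of all genes tested) and 26 under CHX (5.75%). Of 31 rows for differentiated cell types, 25 were at 0 in every library and ins.L alone reached a mean of 12. The replicates at 7.5 hpf stood apart in that zygotic list, with summed values of 24671 and 16763 in CHX embryos and 31700 and 13919 in controls, against 1046 and 877 at 5 hpf. Over all genes tested the correlation between replicates was 0.927 for CHX, 0.853 for 7.5 hpf controls and 0.921 for 5 hpf, and the part of this difference between the control libraries in the results below was not tested beyond leaving out each library. The 75 genes differed by a median of 0.22 on the log2 scale between CHX replicates, 0.27 between 7.5 hpf control replicates and 0.18 between 5 hpf replicates.

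Fold changes are given as log2(value + 1) differences from a limma fit over all 19149 genes with a mean of at least 12, and calls were made at an adjusted p (Benjamini-Hochberg) below 0.05. The genes called in comparisons with 5 hpf were all higher at 7.5 hpf: ncl.L, ncl.S and nop56.L in both, nol12.S in controls and nol9.L under CHX. In controls at 7.5 hpf against 5 hpf, 4 of 75 genes were higher (5.33%, against 5.9% of all genes tested) and 0 lower (0.715% of all genes). In CHX embryos against the 5 hpf start, 4 were higher (against 5.75% of all genes) and 0 lower (0.256%). Between CHX and control embryos at 7.5 hpf, 0 were higher (0.198% of all genes) and 0 lower (0.355%), with 4 genes at an unadjusted p under 0.05 in limma, or 5.33% against 8.23% of all genes. The shares of called genes were thus near those of the whole table. The 2 comparisons with 5 hpf share the same 5 hpf libraries and are not independent.

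Nucleolin, the RNA-binding protein that is among the most abundant proteins of the nucleolus and acts in ribosomal DNA transcription and precursor processing, gave the clearest change. The L copy, ncl.L, had normalized values of 3829 and 4372 in CHX embryos and 4090 and 3554 in 7.5 hpf controls, against 1619 and 2149 at 5 hpf. The S copy, ncl.S, stood at 7469 and 6845 in CHX embryos and 7647 and 5897 in 7.5 hpf controls, against 3475 and 3599 at 5 hpf. Every library at 7.5 hpf, treated or not, lay above both 5 hpf libraries for both copies, and CHX and control values overlapped. In controls ncl.L rose 2.04-fold (log2 fold change 1.03 ± 0.16, SE, adjusted p = 0.003045) and ncl.S by slightly less (log2 fold change 0.93 ± 0.15, adjusted p = 0.003401). Under CHX the rise over 5 hpf was 2.19-fold for ncl.L (log2 fold change 1.13 ± 0.16, adjusted p = 0.001603) and 2.02-fold for ncl.S (1.02 ± 0.15, adjusted p = 0.001787). The direct difference between CHX and control embryos at 7.5 hpf was 0.10 for ncl.L, with a 95% interval of -0.26 to 0.46 on the log2 scale, and 0.09 for ncl.S, with an interval of -0.24 to 0.42. In the 7.5 hpf controls ncl.S was higher in replicate 1, the replicate with the larger zygotic sum, and its log2 fold change over 5 hpf was 0.74 without replicate 1 and 1.11 without replicate 2, called in both. In controls, the ncl.L call ended (adjusted p = 0.0641) when control 7.5 hpf replicate 1 was dropped. The ncl.S call ended without CHX replicate 1 or replicate 2, libraries that enter that comparison only through the estimate of the spread. In controls it also ended in a limma fit of the 2 groups alone (adjusted p = 0.0523), where ncl.L stayed called (0.0419). Under CHX, leaving out CHX replicate 1 or replicate 2 gave adjusted p of 0.0960 and 0.106 for ncl.L and 0.164 and 0.0875 for ncl.S, while the fold changes stayed between 0.93 and 1.34 on the log2 scale over all 6 omissions.

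The 2 nucleolin copies made up much of the net change in the summed value of the set. In such a sum genes with high values weigh most, and values are not divided by gene length. Their summed value averaged 11257.5 ± 57.3 in CHX embryos and 10594.0 ± 1616.4 in 7.5 hpf controls, against 5421.0 ± 462.4 at 5 hpf (SD, n = 2). The summed value of all 75 genes was 53970 and 51680 in CHX embryos and 53268 and 49313 in 7.5 hpf controls, against 41028 and 42510 at 5 hpf. Nucleolin accounted for 54.3% of the net difference in controls between 7.5 and 5 hpf. For CHX embryos over the 5 hpf start its share was 52.8%. Falls of other genes are subtracted in these net differences. In controls the 41 genes with a positive difference added 11801.0, nucleolin 5173.0 of it, against 9521.5 net. Under CHX the 47 such genes added 12296.0, nucleolin 5836.5 of it, against 11056.0 net. As a share of each library the set took 0.743% and 0.731% under CHX and 0.688% and 0.693% in 7.5 hpf controls, against 0.614% and 0.626% at 5 hpf. Summed values of the other 73 genes were 42672 and 40463 under CHX. In 7.5 hpf controls they were 41531 and 39862, against 35934 and 36762 at 5 hpf. Without nucleolin, the median log2 fold change of the other 73 genes was 0.075 between 7.5 and 5 hpf controls, against 0.03 over all genes tested. Leaving out 2 of 75 genes can move a median only slightly, so that value says little about nucleolin.

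**Figure D1:**
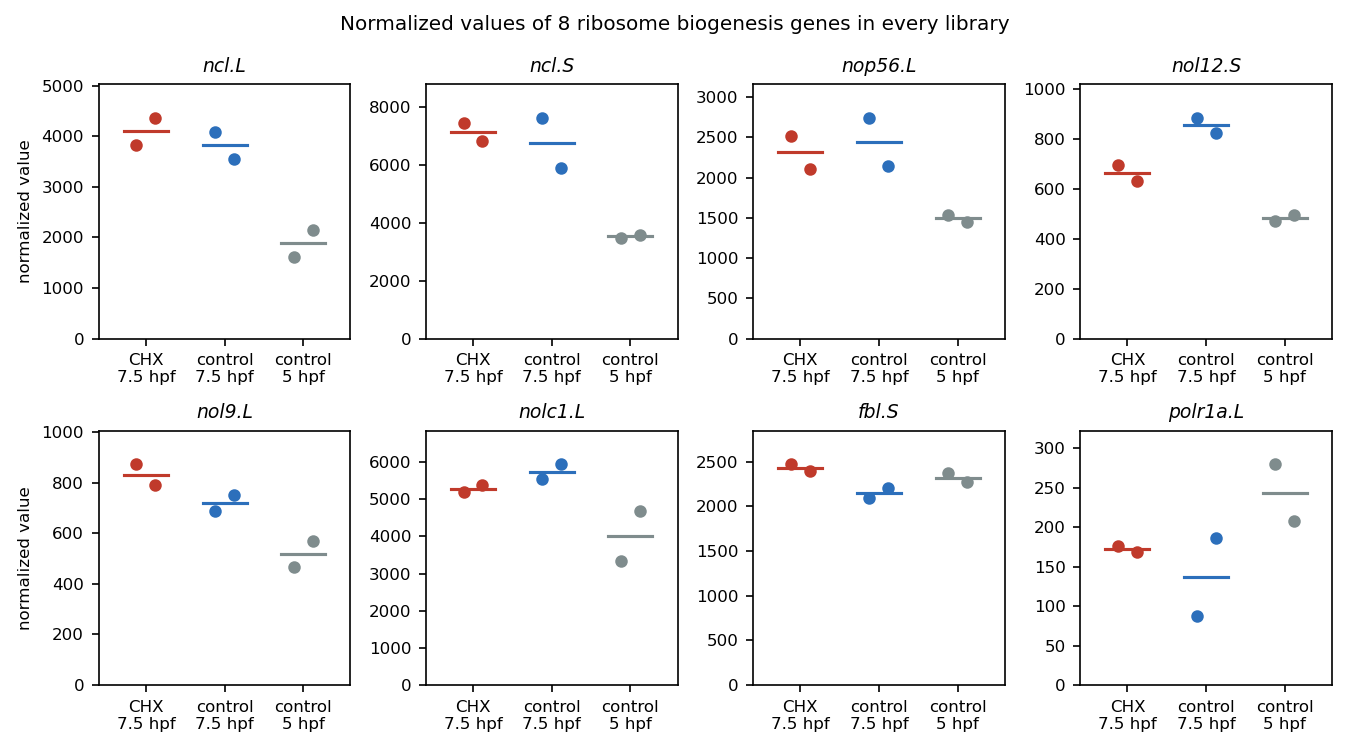
Normalized value (linear axis from 0) of 8 genes in each library, with 1 point per library and a line at the group mean, ordered CHX 7.5 hpf, control 7.5 hpf, control 5 hpf from the left. The upper row and nol9.L show the genes called in at least 1 comparison: both 7.5 hpf groups lie above both 5 hpf libraries (for ncl.L, 3554 or more at 7.5 hpf, against 2149 or less at 5 hpf), while fbl.S stays between 2089 and 2473.

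The other 3 rows for organisers of the nucleolus did not pass the test. The phosphoprotein gene nolc1.L, whose product chaperones snoRNPs, had values of 5188 and 5383 in CHX embryos and 5541 and 5944 in 7.5 hpf controls, against 3336 and 4684 at 5 hpf. All later libraries exceeded the 5 hpf ones, but the 5 hpf replicates themselves differed widely, and the log2 fold change in controls was 0.54 ± 0.16 (limma adjusted p = 0.0858). It passed only without control 5 hpf replicate 2 (adjusted p = 0.0248), with the replicate number as a block or under scaling on maternal transcripts. Nucleophosmin, a histone and ribosome chaperone of the outer nucleolus, is encoded by npm1.L and npm1.S. npm1.S was at 786 and 776 in CHX embryos, against 1345 and 862 in 7.5 hpf controls, and at 837 and 674 at 5 hpf. Both CHX values lay below both controls of the same age and among the 5 hpf values, with a log2 difference between CHX and control of -0.46 ± 0.21 (adjusted p = 0.614). npm1.L had 1296 and 1172 in CHX embryos and 1661 and 1144 in 7.5 hpf controls, against 1148 and 988 at 5 hpf, so its CHX values lay within the control range of the same age. Without control 7.5 hpf replicate 2 npm1.S was higher in controls at 7.5 than at 5 hpf by 0.84 on the log2 scale, with 1345 as the single 7.5 hpf control left.

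RNA polymerase I itself gave no call. Of 9 subunit rows, 0 were higher or lower in any of the 3 comparisons. Over all genes tested at most 5.9% were called in either direction, so 0 calls in 9 rows are near that share. In controls from 5 to 7.5 hpf, 3 of the 9 had a positive log2 fold change, against 10020 of all 19149 genes tested. The median of the 9 rows was -0.13, against 0.03 for all genes tested. polr1a.L, which encodes the largest, catalytic subunit, had 176 and 168 in CHX embryos and 88 and 186 in 7.5 hpf controls, against 280 and 208 at 5 hpf. Both later groups lay below the 5 hpf values, and the log2 fold change in controls was -0.91 ± 0.37 (limma adjusted p = 0.203). It reached -1.45 without control 7.5 hpf replicate 2, where the single 7.5 hpf control left is the one at 88. polr1b.L, the second-largest subunit, was at 266 and 274 in CHX embryos and 196 and 296 in 7.5 hpf controls, against 265 and 393 at 5 hpf. polr1c.L, a subunit shared with RNA polymerase III, was at 280 and 329 in CHX embryos and 327 and 216 in 7.5 hpf controls, against 344 and 245 at 5 hpf. The groups overlapped in every comparison for both genes.

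The remaining polymerase subunits were low or moved within their error. polr1d, also shared with RNA polymerase III, has 3 rows. polr1d.1.L had 113 and 143 in CHX embryos, against 179 and 181 in 7.5 hpf controls, with 137 and 116 at 5 hpf, a CHX to control difference of -0.50 ± 0.31. polr1e.L, which encodes a subunit of a heterodimer that acts in initiation and elongation, also lay lower under CHX, with 92 and 111 in CHX embryos, against 185 and 146 in 7.5 hpf controls, and 120 and 118 at 5 hpf. Its CHX values lay below both ages of control, with a log2 difference of -0.70 ± 0.33 from control at 7.5 hpf (limma adjusted p = 0.625). polr1f.L, whose product contacts the initiation factor Rrn3 in yeast, was at 218 and 201 in CHX embryos and 220 and 259 in 7.5 hpf controls, against 314 and 210 at 5 hpf. polr1d.1.S had 32 and 67 in CHX embryos and 69 and 34 in 7.5 hpf controls, against 52 and 62 at 5 hpf. polr1d.2.L had 8 and 18 in CHX embryos, against 43 and 27 in 7.5 hpf controls, and 22 and 23 at 5 hpf. Under CHX polr1d.2.L lay below both control ages (-1.42 ± 0.83 relative to control at 7.5 hpf) and polr1f.L just below control at 7.5 hpf (-0.19 ± 0.27), without a call, while the groups overlapped for polr1d.1.S. polr1h.L, the zinc-ribbon subunit involved in RNA cleavage, had the largest CHX to control difference of the set. It stood at 37 and 50 in CHX embryos, against 0 and 13 in 7.5 hpf controls, and at 18 and 23 at 5 hpf. CHX values lay above, and controls below, the 5 hpf pair, but the difference of 3.56 ± 1.25 did not pass (adjusted p = 0.460) and was called only without control 7.5 hpf replicate 2 (5.46, adjusted p = 0.0491), where the single control left is listed at 0.

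Initiation factors of the polymerase gave no call among 3 rows. A list of 3 rows is too short to set apart from all genes tested, of which at most 5.9% were called in either direction. Upstream binding factor, an HMG-box protein that keeps ribosomal DNA in an open state, is encoded by ubtf.L and ubtf.S. ubtf.L had 830 and 573 in CHX embryos and 436 and 606 in 7.5 hpf controls, against 461 and 416 at 5 hpf. The CHX values overlapped those of controls of the same age and lay above both 5 hpf values, with a log2 fold change over 5 hpf of 0.65 ± 0.23 (limma adjusted p = 0.158). It passed under scaling on maternal transcripts alone (adjusted p = 0.0379). ubtf.S was at 1145 and 962 in CHX embryos and 905 and 934 in 7.5 hpf controls, against 851 and 841 at 5 hpf, a log2 fold change over 5 hpf of 0.31 ± 0.15 under CHX. rrn3.L, the factor that recruits the polymerase to the promoter, was near the detection limit, with 8 and 33 in CHX embryos, 15 and 14 in 7.5 hpf controls and 33 and 0 at 5 hpf, and its interval of -1.92 to 5.09 for CHX over 5 hpf leaves its change undetermined.

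**Figure D2:**
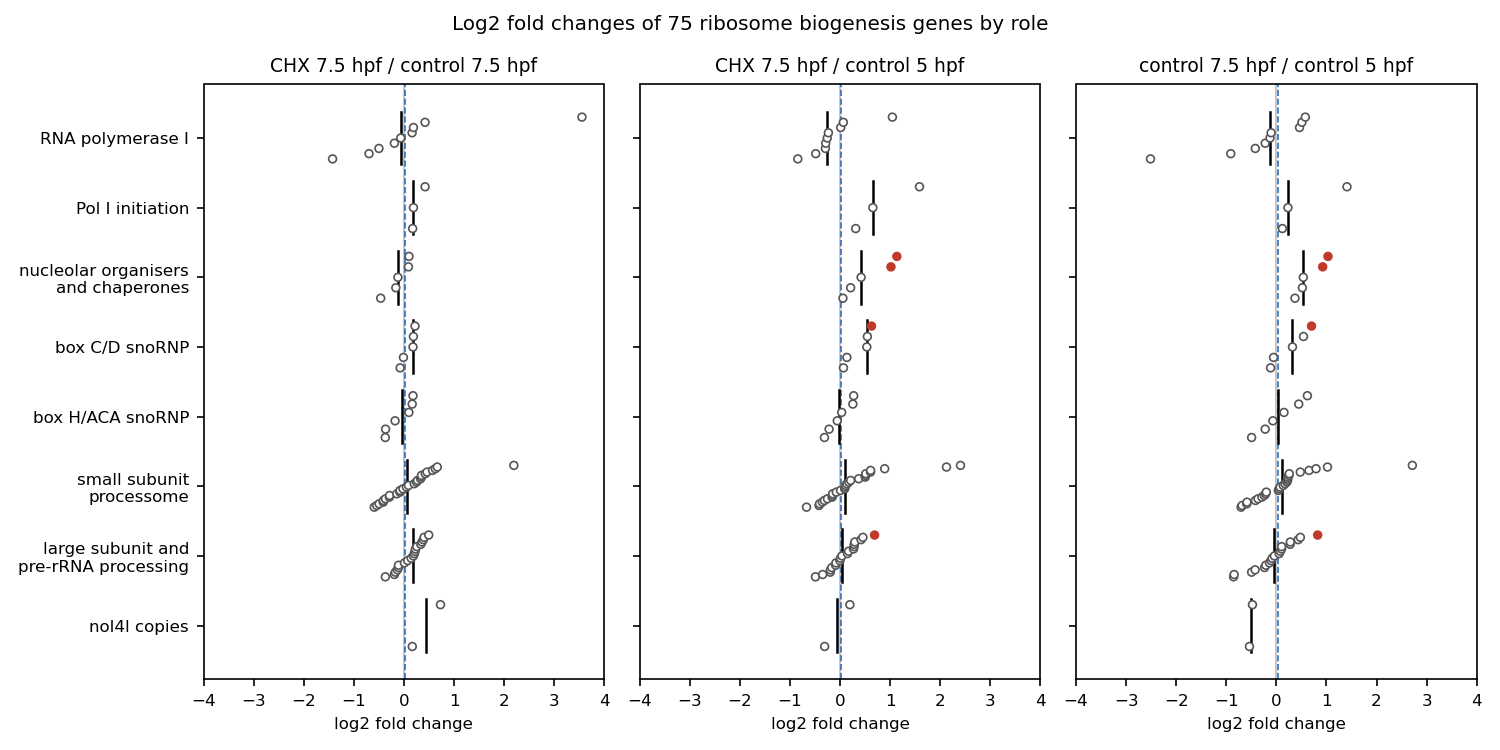
Log2 fold change (horizontal axis, log2(value + 1) scale) of each of the 75 genes by role, for CHX over control at 7.5 hpf, CHX at 7.5 hpf over control at 5 hpf and control at 7.5 hpf over control at 5 hpf. Filled red points are genes called by limma, black ticks are role medians and the dashed line is the median of all genes tested; 0 points are filled in the left panel and 4 in each of the others, and the points past 2 in size belong to genes with a mean value under 50.

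Box C/D snoRNPs, which guide methylation of ribosomal RNA, gave 1 called gene among 5 rows. Over all genes tested 5.9% were called higher in controls and 5.75% under CHX, and 1 call in 5 rows says little beside these shares. The scaffold gene nop56.L had 2523 and 2105 in CHX embryos and 2746 and 2145 in 7.5 hpf controls, against 1533 and 1452 at 5 hpf. Both later groups lay above both 5 hpf libraries, and nop56.L rose 1.63-fold in controls (log2 fold change 0.70 ± 0.16, adjusted p = 0.0238) and 1.54-fold under CHX (0.63 ± 0.16, adjusted p = 0.0440). Its partner gene nop58 had positive differences in both copies: nop58.L was at 544 and 551 in CHX embryos and 612 and 496 in 7.5 hpf controls, against 394 and 363 at 5 hpf. nop58.S was at 857 and 795 in CHX embryos and 730 and 686 in 7.5 hpf controls, against 582 and 550 at 5 hpf. For both nop58 copies every later library exceeded the 5 hpf ones, yet no comparison passed, the lowest adjusted p being 0.0760 for nop58.S in CHX over 5 hpf. That difference was called with library weights (0.0336) and under scaling on maternal transcripts (0.0210). Fibrillarin, the methyltransferase of the particle, was not called: fbl.S had 2473 and 2392 in CHX embryos and 2089 and 2201 in 7.5 hpf controls, against 2372 and 2274 at 5 hpf. fbl.L was at 1672 and 1583 in CHX embryos and 1508 and 1348 in 7.5 hpf controls, against 1562 and 1406 at 5 hpf, and the 95% intervals of both copies lay within -0.39 and 0.25 for controls from 5 to 7.5 hpf.

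The nop56.L calls were lost under many alternatives, with the direction kept. In controls the call was kept (adjusted p = 0.0193) when control 7.5 hpf replicate 2 was dropped and lost in the other 5 omissions, with adjusted p from 0.0977 to 0.160. For CHX over 5 hpf it was lost without either 5 hpf or either CHX library (0.168 to 0.532). The log2 fold change lay between 0.52 (without control 7.5 hpf replicate 1) and 0.88 (without replicate 2) in controls over the 6 omissions, and between 0.50 and 0.76 for CHX over 5 hpf. Both calls ended with no filter on low genes (0.0918 in controls and 0.135 under CHX) and on equal totals (0.0532 and 0.0699). The control call also ended in a fit of the 2 groups alone (0.0912) and the CHX call with a pseudocount of 0.5 (0.0525).

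Box H/ACA snoRNPs, which convert uridine to pseudouridine, gave no call among 6 rows. With so few rows, 0 calls are near the share of all genes tested (at most 5.9% in either direction). The enzyme gene of these particles, dkc1.L, encoding dyskerin, had 2482 and 2107 in CHX embryos and 2710 and 2462 in 7.5 hpf controls, against 1832 and 1960 at 5 hpf. All 4 later libraries exceeded the 5 hpf pair, with a log2 fold change in controls of 0.45 ± 0.14 (limma adjusted p = 0.0939), called under scaling on maternal transcripts alone (0.0345). The small core proteins Nop10, Gar1 and Nhp2 did not share one pattern. nop10.S was at 189 and 136 in CHX embryos, against 215 and 199 in 7.5 hpf controls, with 149 and 121 at 5 hpf. gar1.L had 426 and 394 in CHX embryos and 363 and 367 in 7.5 hpf controls, against 487 and 373 at 5 hpf. gar1.S was at 718 and 673 in CHX embryos and 634 and 663 in 7.5 hpf controls, against 801 and 578 at 5 hpf. Both gar1 copies had later values inside or next to the wide 5 hpf range. nhp2.L had 228 and 282 in CHX embryos and 220 and 227 in 7.5 hpf controls, against 273 and 364 at 5 hpf, a log2 fold change in controls of -0.49 ± 0.24. The other copy, nhp2.S, had 436 and 380 in CHX embryos, against 534 and 520 in 7.5 hpf controls, with 504 and 446 at 5 hpf, so the order of the groups was not that of nhp2.L.

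The small subunit processome, the large particle that assembles on the nascent precursor, contributed 26 rows and no call. Over all genes tested 5.9% were higher in controls and 5.75% in CHX over 5 hpf, with 0.715% or less in every other direction. In a list of this size 0 calls are not far from these shares. The median log2 fold change of the processome rows was 0.07 for CHX over control at 7.5 hpf, 0.10 for CHX over 5 hpf and 0.11 for controls from 5 to 7.5 hpf. The summed value of the 26 rows was 8046 and 7650 in CHX embryos and 7654 and 7182 in 7.5 hpf controls, against 7277 and 7308 at 5 hpf. imp4.S, whose product pairs the U3 snoRNA with the precursor in yeast, came nearest to a call. It had 358 and 301 in CHX embryos, against 201 and 212 in 7.5 hpf controls, with 187 and 167 at 5 hpf. CHX values lay above all 4 control libraries, by 0.67 ± 0.24 over control at 7.5 hpf (adjusted p = 0.478) and by 0.89 ± 0.24 over 5 hpf (adjusted p = 0.0594). It was called over 5 hpf with library weights (adjusted p = 0.0266) and under scaling on maternal transcripts (0.0197).

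nop14.L, a processome component, was measured at 1290 and 1131 in CHX embryos, against 1003 and 1027 in 7.5 hpf controls, and 831 and 876 at 5 hpf. The groups did not overlap, and the log2 fold change of CHX over 5 hpf was 0.50 ± 0.15 (limma adjusted p = 0.0802), called with library weights (0.0371) and under scaling on maternal transcripts (0.0190). The most extreme rows were low ones: utp20.S (23 and 18 in CHX embryos, 73 and 13 in 7.5 hpf controls, 0 and 23 at 5 hpf) and utp15.S (27 and 17 in CHX embryos, 0 and 23 in 7.5 hpf controls, 2 and 5 at 5 hpf). Their L copies ranged from 339 to 447 (utp20.L) and from 36 to 68 (utp15.L). The other 20 processome rows had mean values from 40.0 to 995.3 and log2 fold changes between -0.70 (nol11.L) and 1.02 (utp18.L) in controls from 5 to 7.5 hpf, and between -0.54 (imp3.S) and 0.63 (nol11.L) for CHX over control at 7.5 hpf. Among the 6 members with a mean under 50 were 4 of the 5 genes past 2-fold in controls from 5 to 7.5 hpf, the other being ncl.L.

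Factors of the large subunit and of precursor processing gave 1 call in each comparison with 5 hpf among 19 rows. That is 5.26% of the rows, against 5.9% of all genes tested called higher in controls and 5.75% under CHX. nol12.S, the homologue of a yeast exonuclease of precursor processing, had 695 and 631 in CHX embryos, against 887 and 826 in 7.5 hpf controls, with 470 and 496 at 5 hpf. The 3 groups did not overlap, and CHX embryos lay between the 2 control ages. In controls nol12.S rose 1.77-fold (log2 fold change 0.83 ± 0.16, adjusted p = 0.0106). Under CHX its level was 0.46 ± 0.16 above 5 hpf (adjusted p = 0.160) and -0.37 ± 0.16 relative to control at 7.5 hpf (adjusted p = 0.583), so no difference between treated and untreated embryos was shown. Scaling on maternal transcripts alone called nol12.S in CHX over 5 hpf (0.673, limma adjusted p = 0.0441). The call in controls was kept only without control 7.5 hpf replicate 2 among the 6 omissions, the others giving adjusted p from 0.0513 to 0.0874.

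nol9.L, which encodes a polynucleotide kinase needed to process the spacer of the large subunit precursor, had 874 and 790 in CHX embryos and 687 and 753 in 7.5 hpf controls, against 465 and 571 at 5 hpf. Both later groups exceeded the 5 hpf pair, CHX the more so, and the gene rose 1.61-fold under CHX over 5 hpf (log2 fold change 0.69 ± 0.17, adjusted p = 0.0413). In controls the same difference was 0.48 ± 0.17 (adjusted p = 0.148), called under scaling on maternal transcripts alone (0.685, limma adjusted p = 0.0434). CHX minus control at 7.5 hpf was 0.21 with a 95% interval of -0.17 to 0.59. The call under CHX held only without control 7.5 hpf replicate 1 among the 6 omissions (adjusted p = 0.0489), the others giving 0.0519 to 0.412, and it was lost on equal totals (0.0936) and with no filter (0.110).

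rrp1b.S had 674 and 775 in CHX embryos, against 496 and 601 in 7.5 hpf controls, with 740 and 800 at 5 hpf. bop1.L, a scaffold of the PeBoW complex, had 611 and 654 in CHX embryos, against 522 and 535 in 7.5 hpf controls, with 764 and 659 at 5 hpf. nop16.S had 195 and 171 in CHX embryos, against 156 and 107 in 7.5 hpf controls, with 246 and 220 at 5 hpf. For these 3 genes the controls at 7.5 hpf lay below both other groups without overlap, with log2 fold changes from 5 hpf of -0.49 ± 0.17, -0.42 ± 0.16 and -0.84 ± 0.29, of which none passed (limma adjusted p of 0.138, 0.185 and 0.138). These 3 were picked out after their values were seen, and 12 of the 75 genes (16.0%) had both 7.5 hpf controls below the other 4 libraries, against 8.68% of all genes tested. The L copy nop16.L was low, at 41 and 49 in CHX embryos and 18 and 66 in 7.5 hpf controls, against 72 and 56 at 5 hpf, and its 7.5 hpf controls spanned the CHX values. pes1.L and pes1.S, which encode the partner of Bop1 in that complex, ranged from 790 to 1118 and from 476 to 630. nop2.L, a methyltransferase of the large subunit RNA, was at 1774 and 1813 in CHX embryos and 1308 and 1539 in 7.5 hpf controls, against 1186 and 1518 at 5 hpf, 0.34 ± 0.16 above control at 7.5 hpf (adjusted p = 0.625), and was called over 5 hpf under scaling on maternal transcripts alone (0.0405). The other 10 rows of this role, with mean values from 257.8 to 804.2, had log2 fold changes between -0.23 (rrp1b.L) and 0.44 (nol7.L) in controls from 5 to 7.5 hpf and between -0.19 (rrp8.L) and 0.39 (nol8.L) for CHX over control at 7.5 hpf.

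The intervals by role show how tightly the comparison of CHX with control embryos at 7.5 hpf was measured. For 49 of 75 genes the 95% interval (not adjusted for the number of genes) lay inside a 2-fold change in either direction, among them all 5 nucleolar organisers, all 5 box C/D rows and 17 of 19 large subunit rows. For 26 it reached past 2-fold, including 6 of 9 polymerase subunits and 14 of 26 processome rows. In 6 of those 26 the interval passed 2-fold in both directions, and in polr1h.L and imp4.S it lay above 0 without the gene being called. Among the 49, the interval lay above 0 for rrp1b.S (0.022 to 0.786) and below 0 for nol12.S (-0.724 to -0.015), also without a call. The median log2 difference between CHX and control was 0.10 for the 75 genes, against 0.02 for all genes tested. Of the 75 genes, 86.7% differed by under 0.5 on the log2 scale, against 67.6% of all genes tested. With both restricted to a mean of at least 100 the shares were 93.7% of 63 members and 84.3% of 11237 genes.

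**Figure D3:**
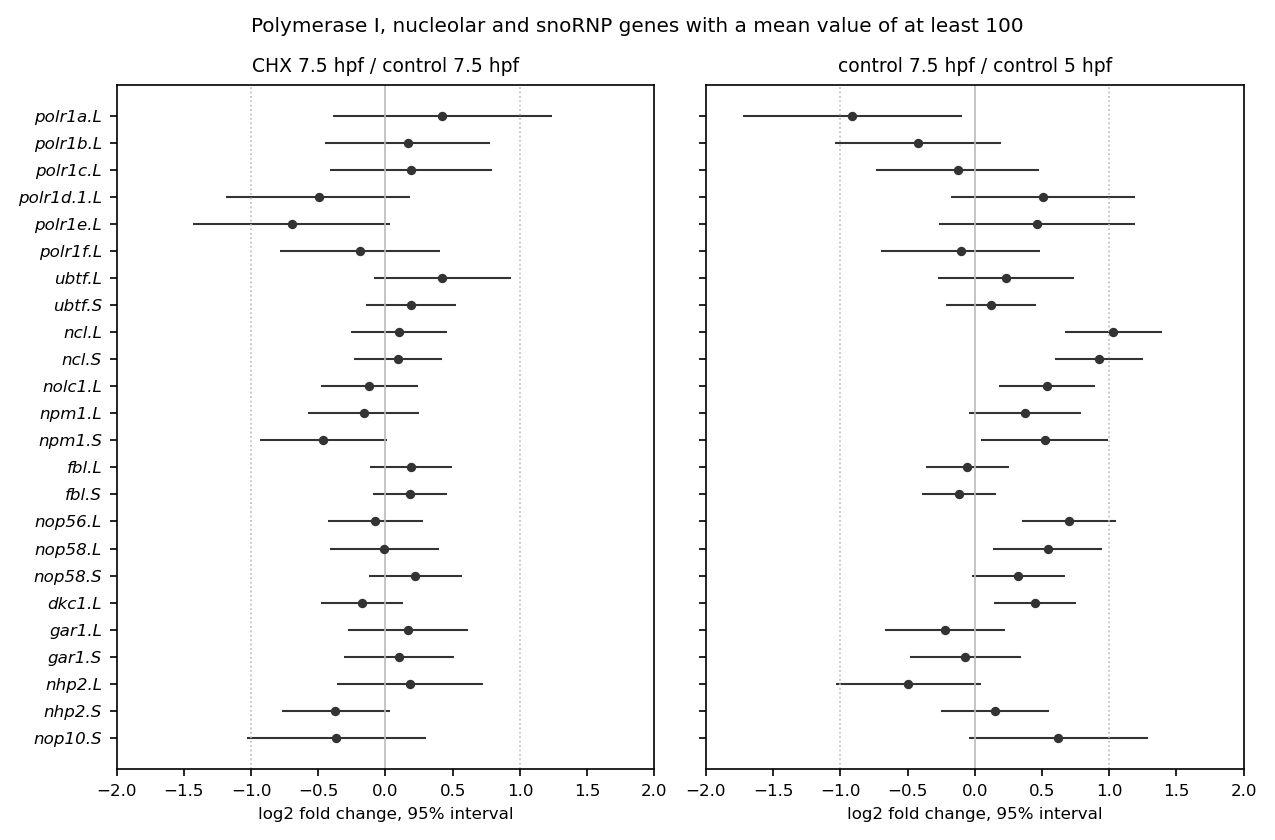
Log2 fold change with its 95% interval (limma, not adjusted) for the 24 polymerase I, initiation, nucleolar and snoRNP genes with a mean value of at least 100, for CHX over control at 7.5 hpf on the left and control at 7.5 hpf over control at 5 hpf on the right. Dotted lines mark 2-fold; on the left every interval of the nucleolar organisers and box C/D genes stays inside them, and on the right ncl.L and ncl.S stand near 1.

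The L and S copies of a gene were measured in the same libraries, so their ratio cancels library scaling. Among 5944 pairs with a mean of at least 12, 25 carried the names of the set, 23 of them with both copies at 12 or above. The ratio was not called changed for any of the 25 pairs: 0 were called in controls from 5 to 7.5 hpf (0.236% of all pairs), 0 in CHX against control at 7.5 hpf (0% of all pairs) and 0 in CHX over 5 hpf (0.606%), with 1, 0 and 0 pairs at an unadjusted p under 0.05 in limma. For nucleolin the log2 ratio of L to S was -0.96 and -0.65 in CHX embryos and -0.90 and -0.73 in 7.5 hpf controls, against -1.10 and -0.74 at 5 hpf. The ratio of the nucleolin copies overlapped between all groups, with a log2 difference in controls of 0.11 ± 0.27. Standard errors of the ratio reached 1.73 for utp15, so changes of several fold were not excluded for pairs with a low copy. The pair with the unadjusted p under 0.05 was nol11, a processome component, whose log2 ratio was 0.08 and -0.45 in CHX embryos and -1.84 and -0.36 in 7.5 hpf controls, against 0.35 and 0.45 at 5 hpf (limma adjusted p = 0.466 for controls). The sources used here do not say how reads of near-identical copies were divided, which leaves the value of a single copy uncertain.

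**Figure D4:**
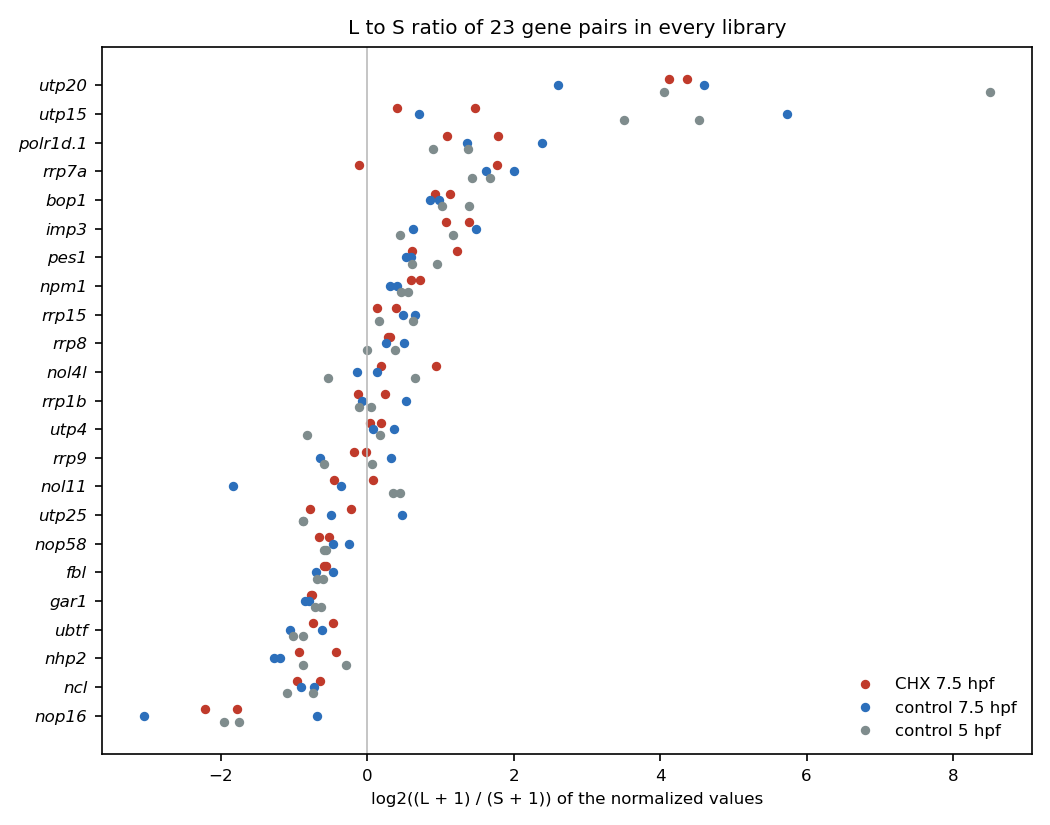
Log2 ratio of the L to the S copy (horizontal axis) for the 23 gene pairs with both copies at a mean of at least 12, with 1 point per library, coloured by group (CHX 7.5 hpf, control 7.5 hpf, control 5 hpf). Points of 1 gene lie close together for ncl, gar1, fbl and npm1 and spread widely for utp15 and utp20, whose S copies have mean values of 12.3 and 25.0.

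Further genes of the pathway were also seldom called. Of 136 measured rows for other assembly factors, 3 were higher at 7.5 than at 5 hpf in controls (2.21%, against 5.9% of all genes tested). In that comparison 1 was lower (0.715% of all genes). Between CHX and control at 7.5 hpf 0 differed (0.198% of all genes higher and 0.355% lower). In CHX over 5 hpf 0 were higher (5.75% of all genes) and 1 lower (0.256%). The higher genes were npm3.S, a relative of nucleophosmin, with 555 and 491 in CHX embryos and 604 and 607 in 7.5 hpf controls, against 347 and 354 at 5 hpf, the processome gene mphosph10.L (log2 fold change 0.60 ± 0.15) and pinx1.L (0.77 ± 0.18). The lower gene, in both comparisons with 5 hpf, was emg1.L, a methyltransferase of the small subunit RNA, with 142 and 147 in CHX embryos and 150 and 145 in 7.5 hpf controls, against 302 and 296 at 5 hpf. It fell by 1.01 on the log2 scale in controls (SE 0.26, adjusted p = 0.0424) and by 1.04 under CHX (SE 0.26, adjusted p = 0.0386). The control call of emg1.L was lost without any 1 library (adjusted p from 0.0628 to 0.208), and each of the 3 higher genes lost its call in 5 of the 6 omissions (0.0705 to 0.210 where lost). The CHX call of emg1.L was lost in 4 of them, with adjusted p up to 0.299. Both emg1.L calls also ended under scaling on maternal transcripts (-0.81 and an adjusted p of 0.0995 in controls, -0.83 and 0.0968 under CHX) and with no filter (0.0746 and 0.0673). On equal totals the calls of npm3.S, mphosph10.L and pinx1.L ended (0.0618, 0.165 and 0.103). In controls the 2-group fit and the fit with no filter called none of these 4 genes, and library weights called npm3.S alone.

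Further lists gave few calls. Of 9 rows for other polymerase I factors and 18 for the exosome, which trims precursor RNA, 0 were called in any comparison. The same held for 12 rows of a list for nucleolar stress and p53, with 0 called. Over all genes tested, 5.9% were higher and 0.715% lower in controls, and 5.75% and 0.256% in CHX over 5 hpf. In CHX against control at 7.5 hpf the shares were 0.198% and 0.355%. In lists this short 0 calls are near those shares. Median standard errors were 0.40 for the polymerase I factors, 0.33 for the exosome and 0.326 for the stress list on the log2 scale. Of 24 rows for RNA polymerase III and the ribosomal small RNA it transcribes, ssb.L alone rose in controls (0.64 ± 0.16, adjusted p = 0.0350), a call lost without any 1 library (0.0941 to 0.233), on equal totals (0.112), with library weights (0.0628), in the 2-group fit (0.0881) and with no filter (0.107). Among 130 rows of ribosomal protein genes, 0 were higher in any comparison and 1 was lower in each comparison with 5 hpf. The share of all genes tested called lower was 0.715% in controls and 0.256% in CHX over 5 hpf. The median standard error of the 130 rows was 0.40 on the log2 scale, against 0.24 for the 75 genes. The lack of calls therefore does not show that ribosomal protein genes were unchanged.

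The Myc network, which drives ribosome biogenesis genes in many animal cells, had 1 row called higher and 1 lower of 23 in controls, against 5.9% and 0.715% of all genes tested. mxi1.L, which encodes an antagonist of Myc, had 492 and 392 in CHX embryos and 191 and 149 in 7.5 hpf controls, against 41 and 30 at 5 hpf. It rose over 5 hpf by 2.23 ± 0.33 on the log2 scale in controls (adjusted p = 0.002121) and by 3.61 ± 0.33 under CHX (adjusted p = 9.2e-05), and CHX exceeded control at 7.5 hpf by 1.38 ± 0.33 without passing (adjusted p = 0.170). Its control call ended in the 2-group fit (0.0683), and its call under CHX was lost without CHX replicate 1 (adjusted p = 0.0553). myc.S was at 566 and 703 in CHX embryos, against 428 and 400 in 7.5 hpf controls, with 626 and 770 at 5 hpf. It fell by 0.75 on the log2 scale in controls (SE 0.19, adjusted p = 0.0418), a call lost without any 1 library (0.0863 to 0.269), under scaling on maternal transcripts (-0.54, 0.149), with library weights (0.0768), in the 2-group fit (0.0954) and with no filter (0.118). It was not called under CHX.

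The scaling of the libraries set the level against which these changes were read. Scaling to equal totals shifted the median of all genes between 7.5 and 5 hpf controls to -0.11 and scaling on maternal transcripts to 0.23, from 0.03 as deposited. The median of the 75 genes was -0.06 and 0.285 under these scalings. A scaling moves every gene by nearly the same amount, so it cannot change how the set stood relative to all genes. Without control 7.5 hpf replicate 1 the median was 0.045 for the 75 genes, against 0.057 for all genes. In each other omission the median of the 75 genes lay above that of all genes. Summed values of the maternal list were 12630 and 12787 in CHX embryos and 12163 and 13535 in 7.5 hpf controls, against 14978 and 14612 at 5 hpf, and the part of that difference in the results was not tested. ncl.L and ncl.S were called over 5 hpf under every scaling tried, in controls and under CHX.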

How the data were processed

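Captured RNA was measured in 6 libraries, 2 per group. Salmon 0.12.0 and DESeq2 were used by the authors, per the submitters' processing notes. The sources used here do not give genome build, annotation, filters or strand setting. Each deposited value is a score, read here as a gene abundance that the authors normalized by library size factor and then rounded, so raw reads and exact depth are not known. Median-of-ratios factors recomputed on them were nearly equal, 1.02 in every library. No counting intervals are given. The log2(value + 1) scale was fitted in limma 3.58.1 (R 4.3.3) by a linear model of 3 groups over 6 libraries with an intensity trend (3 residual degrees of freedom, prior 7.35). Tests were two-sided and adjusted over all genes tested. Ratios of L to S copies were fitted by the same group model over all pairs. There the trend followed the mean log2 ratio and not intensity, and the prior was 1.72 degrees of freedom, which makes that test weaker.

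The members and gene lists were chosen with earlier results of these data known. Named are all called members, all polymerase I and initiation rows, nucleolar and snoRNP core genes, and in each role the row of highest mean value and that with the largest log2 fold change in each comparison; from other lists, called genes. Exceptions chosen after their values were seen are imp4.S, bop1.L, rrp1b.S, pes1.L, pes1.S and the copies set beside them. RefSeq names of assembly Xenopus laevis v10.1 matched 73 of 75 members; no sequences were used. Python 3.11.15 with pandas 2.3.3, numpy 2.4.6 and matplotlib 3.10.9 gave tables and figures. Alternatives were other pseudocounts (0.5 and 5), filters (none, and a mean of at least 50), 3 scalings, the replicate number as a block, 2-group fits, library weights and leaving out each library.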

Additional observations from a re-analysis of the deposited data

How the results depend on the processing

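Among the 75 genes, the count called higher at 7.5 than at 5 hpf in controls was 4, and became 7 when libraries were scaled on maternal transcripts, 2 when only the 2 groups compared were fitted, and between 1 and 5 when 1 library was left out. The count called lower in that comparison was 0, and between 0 and 2 when 1 library was left out. The count higher in CHX over 5 hpf was 4, and became 2 on equal totals, 10 on maternal transcripts, 7 with library weights, 2 with no filter and between 0 and 4 when 1 library was left out. Between CHX and control at 7.5 hpf the count higher was 0, and between 0 and 1 when 1 library was left out. The median log2 fold change of the set became -0.06 on equal totals and 0.285 on maternal transcripts for controls (0.080 as deposited), and 0.007 and 0.315 for CHX over 5 hpf (0.096). Leaving out 1 library moved it between 0.045 and 0.140 in controls and between 0.046 and 0.139 for CHX against control at 7.5 hpf. Why these values moved was not tested, apart from the loss of a library in the omissions, where the lone library left in a group is assumed to vary like the other groups.

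Replicates with the same number shared little of their deviation from the group means: across genes, the correlation was 0.13 between CHX and control at 7.5 hpf, 0.01 between the control ages and -0.02 between CHX and 5 hpf. With the replicate number as a block, 5 genes were higher in controls, 4 in CHX over 5 hpf and 0 in CHX against control, the added gene being nolc1.L (adjusted p = 0.0206). Pairs with a changed L to S ratio numbered 0 under each alternative run, including an abundance trend chosen after seeing the data. No called gene reversed direction in any alternative. Low values and 2 libraries per group limit the polymerase subunits: their median standard error was 0.33 on the log2 scale over 9 rows, against 0.16 for the nucleolar organisers.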

Other observations

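Of the 73 members matched in RefSeq assembly Xenopus laevis v10.1, 6 hold annotated snoRNA genes inside their span: ncl.L (3 snoRNA genes), ncl.S (2), nop56.L (3), nop58.L (5), nop58.S (5) and dkc1.L (2). Introns of such host genes are a known source of snoRNAs in vertebrates. Their log2 fold changes between 7.5 and 5 hpf controls lay between 0.32 and 1.03, all above 0, with a median of 0.62. The genes called higher among them were ncl.L, ncl.S and nop56.L (5.9% of all genes tested were called higher), which were already known when the group was formed. The summed value of the 6 genes was 17704 and 16775 in CHX embryos and 18535 and 15240 in 7.5 hpf controls, against 9435 and 10073 at 5 hpf. This group was picked out after its values were seen and carries no test.

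A further 117 tested protein-coding genes outside the set have a snoRNA gene inside their span. In controls at 7.5 against 5 hpf, 5 of them were higher (4.27%, against 5.9% of all genes tested) and 2 lower (0.715% of all genes). Their median log2 fold change was 0.05. Under CHX relative to 5 hpf, 2 of these 117 were higher (1.71%, against 5.75% of all genes) and 1 lower (0.256% of all genes). The summed value of those 117 genes was 84913 and 83797 in CHX embryos and 81811 and 79863 in 7.5 hpf controls, against 80256 and 80846 at 5 hpf. Whether an annotated snoRNA lies on the strand of its host was not used here.

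The remaining members by name only, nol4l.L and nol4l.S, have no known role in ribosome assembly. nol4l.L had 89 and 98 in CHX embryos and 65 and 48 in 7.5 hpf controls, against 107 and 62 at 5 hpf, and nol4l.S had 46 and 86 in CHX embryos and 59 and 53 in 7.5 hpf controls, against 68 and 90 at 5 hpf. Neither was called. The row nop56.S, left out for its low mean, was listed at 8 and 8 in CHX embryos and 0 and 5 in 7.5 hpf controls, against 0 and 0 at 5 hpf.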
